A study of Arabidopsis thaliana with 24 samples.

Results

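The miR160 family of Arabidopsis thaliana made up 3 of the 350 mature sequences in each deposited table, taken as every entry with the family number 160 in its names. The 5p strand has 1 entry, shared by the names ath-miR160a-5p, ath-miR160b, and ath-miR160c-5p and called miR160c-5p here. The 3p strands have 2 entries, miR160a-3p and miR160c-3p. All 3 entries lay above 0 RPM (reads scaled to library size) in all 24 libraries, and a 3p strand of miR160b was not analysed here.

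The small RNA libraries came from 2-week-old seedlings of Columbia ecotype, exposed for 4 h to 100 µM ABA or to mock, and each of the 8 groups had 3 biological replicates. ABA (abscisic acid) is the plant hormone of drought and salt stress and of seed dormancy. The genotypes were abi1td, mkkk17, and mkkk18, each a single line with a T-DNA insertion, and WT Col-0. ABI1 is a phosphatase that holds ABA signaling back, and MAPKKK17 and MAPKKK18 are kinases of an ABA-activated cascade. Messenger RNA of the disrupted genes was not measured, so the insertions could not be checked here, and neither could the tissue of origin of the RNA.

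miR160 pairs with the messenger RNAs of the auxin response factors ARF10, ARF16, and ARF17, which repress auxin-responsive genes, and guides their cleavage. The family is conserved among land plants and acts in root cap formation, leaf shape, and embryo development. Plants with a miR160-resistant form of ARF10 are hypersensitive to ABA at germination, which places the family between auxin and ABA signaling. In each precursor hairpin the 5p strand is the guide, and the 3p strand is its partner in the duplex, which is mostly degraded.

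The mature sequences are shown because the names hide how few molecules the family has, and because the 3p strands are the only entries that tell the loci apart. Seed bases 2 to 8 stand in capitals, and U is written as T, as in the deposited tables.
miR160c-5p: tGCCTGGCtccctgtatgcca
miR160a-3p: gCGTATGAggagccatgcata
miR160c-3p: cGTACAAGgagtcaagcatga
Each is 21 nt long, and none of the other 349 entries has the seed of any of them. Offset by 1 base, the 3p strands are identical at 15 of 20 aligned bases. GC content was 61.9% in miR160c-5p, 52.4% in miR160a-3p, and 47.6% in miR160c-3p.

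In the TAIR10.1 assembly the 5p sequence occurs in 3 annotated precursors. It lies at chr2:16340282-16340302 (plus strand) in MIR160a (AT2G39175), at chr4:9888986-9889006 (plus strand) in MIR160b (AT4G17788), and at chr5:19009158-19009178 (minus strand) in MIR160c (AT5G46845). A 5p read therefore cannot be assigned to a locus. miR160a-3p has its place at chr2:16340342-16340362 in MIR160a, and miR160c-3p at chr5:19009095-19009115 in MIR160c.

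The binding sites of the 3 known targets are shown because they define what the family is known for. The mRNA strand is written 5′ to 3′, and capitals mark bases that do not form a Watson-Crick pair with miR160c-5p.
ARF17: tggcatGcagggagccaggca
ARF10: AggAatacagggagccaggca
ARF16: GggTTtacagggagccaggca
The ARF17 site (AT1G77850, chr1:29274189-29274209, plus strand, exon 2 of 2) had 0 mismatches and 1 G:U pair. The ARF10 site (AT2G28350, chr2:12115741-12115761, plus strand, exon 2 of 3) had 2 mismatches. The ARF16 site (AT4G30080, chr4:14704141-14704161, minus strand, exon 3 of 4) had 2 mismatches and 1 G:U pair. All 3 sites lie in coding sequence. With a mismatch counted as 1 and a G:U pair as 0.5, these were the only 3 of 27444 protein-coding genes (0.0109%) with an ungapped sense-strand site scoring 3 or less. At 4 or less there were 5 genes, and at 5 or less 69 genes (0.251%). Transcripts of the targets were not measured in these libraries, and the scan gives sequence matches only.

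miR160c-5p was among the abundant entries, with a mean of 429 RPM over the 24 libraries, rank 13 of 350, and ranks from 8 to 16 within single libraries. The 3p strands averaged 2.57 RPM (miR160a-3p, rank 103) and 1.55 RPM (miR160c-3p, rank 119). The 5p strand held from 98.3% to 99.6% of the family's RPM (median 99.0%), and was from 57.5-fold to 272-fold more abundant than the summed 3p strands (median 94.6-fold). Its spread within groups, a pooled SD of 0.27 on the log2 scale after rescaling, was the 8th smallest of 129 entries (median 0.40).

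The deposited tables hold RPM to 1 decimal and no counts, and their sum over the 350 entries ranged from 16515 to 78277 RPM per library (median 45443). In 10 ABA libraries the gaps between low values showed what 1 read is worth, from 0.116 to 0.180 RPM. There miR160c-5p stood for 2259 to 4765 reads, miR160a-3p for 7.26 to 27.8 reads, and miR160c-3p for 5.17 to 23.2 reads. In the other 14 libraries, which include every mock library, no such gaps were seen, which puts 1 read at about 0.1 RPM or less. Values of the 3p strands thus rest on few reads, and these figures cover counting error only.

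In WT Col-0, as deposited, miR160c-5p had 543.9, 468.9, and 661.9 RPM in ABA libraries, against 323.2, 446.3, and 574.9 RPM in mock libraries. In abi1td it had 385.2, 312.1, and 305.7 RPM in ABA libraries, against 503.8, 231.5, and 320.2 RPM in mock libraries. In both genotypes the ABA and mock libraries overlapped. In mkkk17 it had 588.5, 652.3, and 535.9 RPM in ABA libraries, against 147.7, 180.5, and 319.7 RPM in mock libraries. In mkkk18 it had 676.6, 359.0, and 367.1 RPM in ABA libraries, against 540.4, 396.6, and 453.9 RPM in mock libraries. Only in mkkk17 did the groups not overlap on the deposited scale. In that genotype, however, the typical entry also stood higher in ABA libraries: the scaling factor, which is the median ratio of a library's entries to their means, was 1.40 higher in ABA than in mock libraries on the log2 scale. The same difference was -0.51 in WT Col-0, -0.13 in abi1td, and -0.21 in mkkk18, and the tests used values divided by these factors. Here and below, the share of all entries whose groups do not overlap was not counted. A gap between groups is thus not shown to be particular to a member.

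After rescaling over the 24 libraries, miR160c-5p had 888, 568, and 686 RPM in WT Col-0 ABA libraries, against 356, 336, and 445 RPM in WT Col-0 mock libraries, and the groups no longer overlapped. In abi1td it had 311, 481, and 353 RPM in ABA libraries, against 401, 316, and 349 RPM in mock libraries. In mkkk17 the values were 386, 357, and 387 RPM in ABA libraries, against 414, 364, and 296 RPM in mock libraries. The wide gap of the deposited mkkk17 values had closed. In mkkk18 they were 563, 312, and 349 RPM in ABA libraries, against 369, 319, and 398 RPM in mock libraries, with replicate 1 of the ABA libraries apart from the rest. By group mean the order began with WT Col-0 ABA at 714 ± 162 RPM (SD, n = 3), whose libraries all lay above the other 21. The margin was narrow, 568 RPM in WT Col-0 ABA replicate 2 against 563 RPM in mkkk18 ABA replicate 1. How many of all entries set the WT Col-0 ABA libraries apart in this way was not counted. In WT Col-0, 33 of 125 entries (26.4%) were called higher with ABA than with mock. The other 7 groups had means from 355 to 408 RPM, and each overlapped its neighbours in the order. In bulk seedlings, less of a miRNA per cell and fewer cells that make it cannot be told apart.

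**Figure D1:**
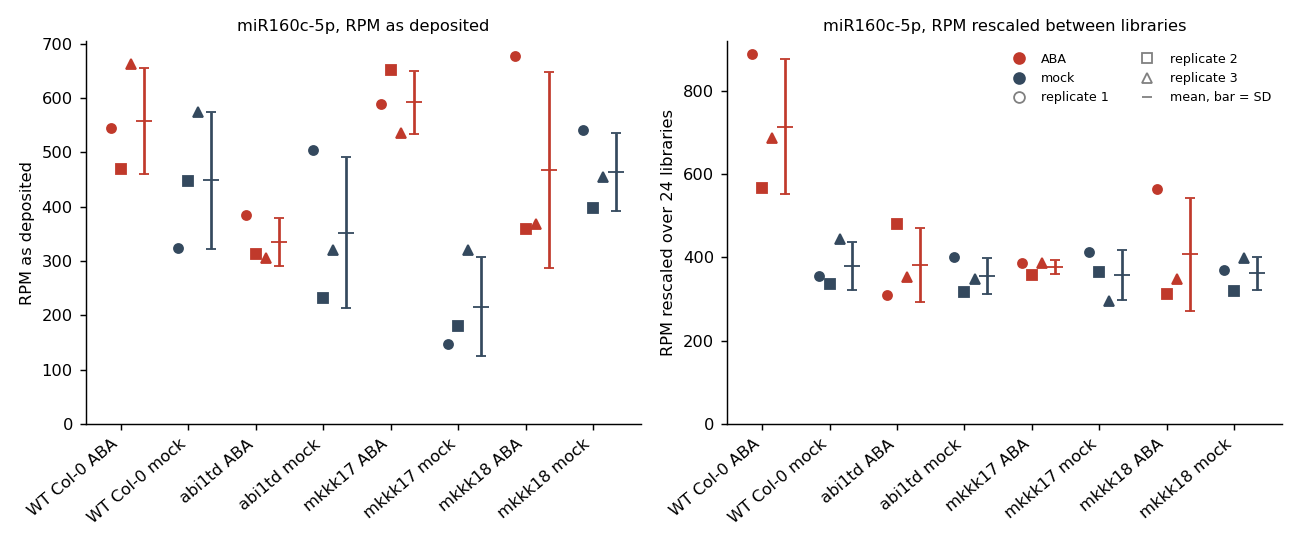
RPM of miR160c-5p in each library as deposited (left) and after rescaling over the 24 libraries (right), by genotype, with ABA in red and mock in blue. Points are libraries, and bars give the mean and SD of 3. On the deposited scale mkkk17 ABA lies above mkkk17 mock. After rescaling the mean of WT Col-0 ABA is 714 ± 162 RPM, and those of the other 7 groups run from 355 to 408 RPM. The lowest WT Col-0 ABA library, at 568 RPM, lies just above the highest of the others, at 563 RPM.

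The comparison of ABA with mock within each genotype addressed which miRNAs respond to the hormone. In WT Col-0, miR160c-5p was 1.81-fold higher in ABA than in mock libraries (95% confidence interval 1.27 to 2.57, log2 change 0.86, SE 0.24, limma with Benjamini-Hochberg adjusted p = 0.00642), a direction that reversed to -0.51 once a straight line on GC content was taken out of each library (limma adjusted p = 0.136). Of the 125 entries tested in that genotype, 60% were called, 33 higher (26.4%) and 42 lower (33.6%), and miR160c-5p was the only one of the 3 members called. Without rescaling the log2 change was 0.34 and not called (limma adjusted p = 0.4999). With any 1 library left out it stayed between 0.73 and 1.02 and was called each time (limma adjusted p from 0.000745 to 0.0485). The largest of these p-values, close to the threshold, came without WT Col-0 mock replicate 1.

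In the mutants no member was called in limma, with 2 of the 9 pairs of member and mutant at an unadjusted p under 0.05, both of them 3p strands. The fold of ABA over mock for miR160c-5p was 1.09 in abi1td (95% interval 0.748 to 1.59), 1.10 in mkkk17 (0.753 to 1.60), and 1.12 in mkkk18 (0.707 to 1.78). The limma adjusted p-values were 0.736 (abi1td), 0.894 (mkkk17), and 0.848 (mkkk18). After rescaling, few entries of any kind were called in these genotypes, 1.55% of 129 (abi1td), 3.1% of 129 (mkkk17), and 3.01% of 133 (mkkk18). With RPM as deposited, miR160c-5p was called in mkkk17, at a log2 change of 1.53 (limma adjusted p = 0.0250), which is close to the factor difference of 1.40 given above, and on that scale 63 of all entries were called in mkkk17, against 4 after rescaling. In abi1td the log2 change was -0.10 without ABA replicate 2, and in mkkk18 -0.13 without ABA replicate 1, against 0.12 and 0.17 with all libraries.

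**Figure D2:**
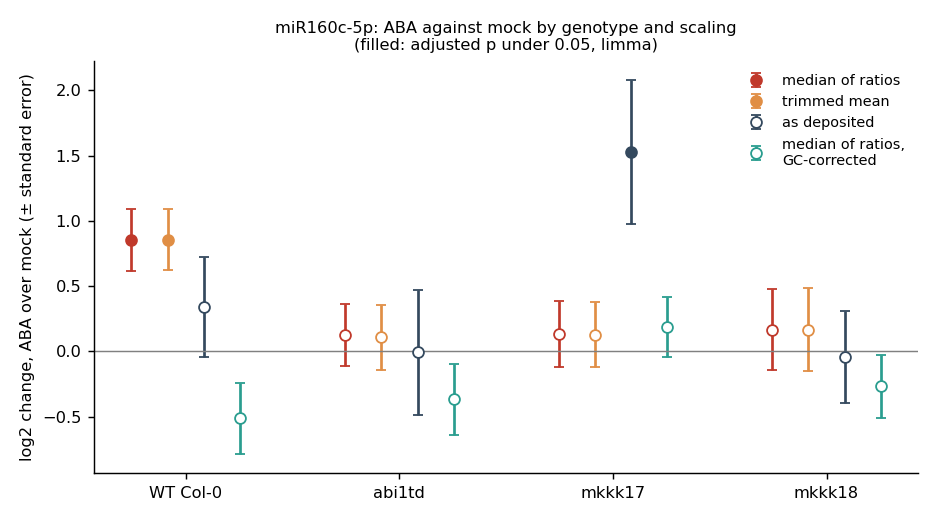
Log2 change of miR160c-5p, ABA over mock, in each genotype under 4 ways of scaling, with bars of 1 standard error; filled points have a limma adjusted p under 0.05. In WT Col-0 the change was 0.86 with median-of-ratios scaling, 0.34 as deposited, and -0.51 after GC correction, and in mkkk17 the deposited scale alone gave a call, at 1.53.

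The changes in WT Col-0 varied with the GC content of the mature sequences, and miR160c-5p is among the GC-rich ones. Across the 125 entries tested, which are not independent replicates, the correlation between GC content and log2 change was 0.64 in WT Col-0. The 27 entries of at most 40% GC had a median log2 change of -1.87, and 2 of them were above 0. The 21 other entries within 5 percentage points of the GC content of miR160c-5p had a median of 0.61, and 17 of them were above 0. Of these 21, 5 had a larger change than miR160c-5p, which ranked 27 of 125. The correlation was 0.48 (abi1td), -0.06 (mkkk17), and 0.49 (mkkk18). The part of GC content in the result was not tested beyond the correction, which reversed the direction in WT Col-0.

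**Figure D3:**
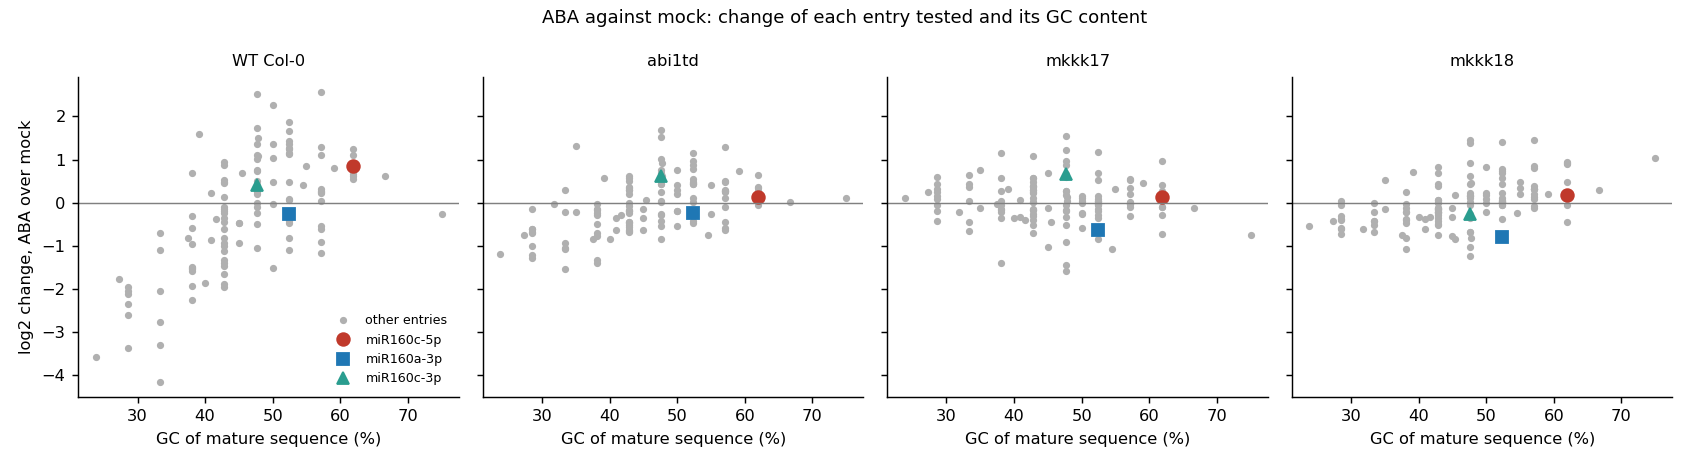
GC content of each mature sequence (percent) against its log2 change, ABA over mock, in each genotype; grey points are the other entries tested, and the 3 members are marked. In WT Col-0 the change climbs with GC content (correlation 0.64), with miR160c-5p at 61.9% GC and 0.86, and in mkkk17 there is no such slope (correlation -0.06).

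Set against WT Col-0 in mock libraries, miR160c-5p was not called in any mutant. The log2 differences from WT Col-0 mock were -0.09 (abi1td), -0.08 (mkkk17), and -0.06 (mkkk18), with 95% intervals that reach from -0.60 to 0.45 over the 3 and limma adjusted p-values of 0.942, 0.912, and 0.945. In these comparisons 0.775% of 129 entries were called (abi1td), 0.775% (mkkk17), and 0% (mkkk18) (23 at an unadjusted limma p under 0.05). With RPM as deposited, mkkk17 mock stood 1.09 lower than WT Col-0 mock on the log2 scale (log2 difference -1.09, limma adjusted p = 0.0335), and on that scale 41 of all entries were called in this comparison, against 1 after rescaling.

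In ABA libraries the mutants had less miR160c-5p than WT Col-0, a difference that turned to 0.07 (abi1td), 0.45 (mkkk17), and 0.16 (mkkk18) under the GC correction and to 0.10 in mkkk17 with RPM as deposited. The log2 difference from WT Col-0 was -0.90 in abi1td (limma adjusted p = 0.0145), -0.90 in mkkk17 (limma adjusted p = 0.00674), and -0.83 in mkkk18 (limma adjusted p = 0.0217), with an SE of 0.25 each. The calls in abi1td and mkkk18 were also lost with RPM as deposited (-0.73, limma adjusted p = 0.248, and -0.31, limma adjusted p = 0.690). The 3 comparisons share the WT Col-0 ABA libraries. Called were 16.3% of 129 entries (abi1td), 41.1% (mkkk17), and 23.3% (mkkk18). Lower than WT Col-0 were 5.43% of entries (abi1td), 17.1% (mkkk17), and 5.43% (mkkk18). Single libraries moved these counts. The 21 entries called in abi1td became 10 without WT Col-0 ABA replicate 3, and 2, 47, and 1 without abi1td ABA replicates 1, 2, and 3. The 30 entries called in mkkk18 became 10 without WT Col-0 ABA replicate 3 and 11 without mkkk18 ABA replicate 2. The call of miR160c-5p in abi1td was lost without its ABA replicate 1 or 3 (limma adjusted p = 0.0932 and 0.0741). The call in mkkk18 was lost without WT Col-0 ABA replicate 1 or 3 (limma adjusted p = 0.0546 and 0.0532) and without mkkk18 ABA replicate 2 or 3 (limma adjusted p = 0.114 and 0.0575).

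The difference in ABA response between each mutant and WT Col-0 was tested directly. It was -0.81 in abi1td (limma unadjusted p = 0.0274, adjusted p = 0.168), -0.81 in mkkk17 (unadjusted p = 0.0278, adjusted p = 0.0747), and -0.77 in mkkk18 (unadjusted p = 0.0356, adjusted p = 0.109), with an SE of 0.35 each in limma. None passed the threshold of 0.05, so a response of miR160c-5p that differs from WT Col-0 was not shown in any mutant. In mkkk17 it passed without WT Col-0 ABA replicate 2 (limma adjusted p = 0.0451) or without mkkk17 mock replicate 3 (limma adjusted p = 0.0424), and in mkkk18 without mkkk18 ABA replicate 1 (limma adjusted p = 0.0368). The share of entries called for such a difference was 1.55% (abi1td), 34.1% (mkkk17), and 13.2% (mkkk18). With RPM as deposited the mkkk17 difference was 1.19, in the opposite direction.

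A share of the summed RPM needs no scaling factor, but it was not corrected for GC content, so the trend given above was not removed from it. In WT Col-0, miR160c-5p made up 1.63%, 0.866%, and 1.24% of the RPM in ABA libraries, against 0.751%, 0.764%, and 0.828% in mock libraries. The WT Col-0 groups did not overlap (exact permutation test, two-sided p = 0.1, the smallest that 3 against 3 libraries allow). Mean shares were 0.859% ± 0.106 in ABA and 0.788% ± 0.140 in mock libraries of abi1td, 0.951% ± 0.130 in ABA and 0.773% ± 0.118 in mock libraries of mkkk17, and 0.821% ± 0.038 in ABA and 0.879% ± 0.206 in mock libraries of mkkk18 (SD, n = 3 each). In these genotypes the groups overlapped. Averaged over the 4 genotypes, the share was 0.163 percentage points higher with ABA (exact permutation test within genotypes, two-sided p = 0.0484). Taken of the sum without its largest entry, the share was 0.487 percentage points higher (exact permutation p = 0.00645), and of the sum over 21-nt entries 0.126 percentage points higher (exact permutation p = 0.159). For the share of the whole sum, the exact permutation p of 0.0484 rose above 0.05 when any of 17 of the 24 libraries was left out, ranging from 0.0502 to 0.106. It stayed under 0.05 without WT Col-0 ABA replicate 2, abi1td mock replicate 1 or 3, abi1td ABA replicate 3, mkkk17 mock replicate 1, mkkk17 ABA replicate 1, or mkkk18 mock replicate 3.

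With ABA the balance between the 3p strands differed, while neither strand alone was called. As deposited, miR160a-3p in WT Col-0 had 1.2, 1.1, and 2.7 RPM in ABA libraries, against 3.2, 2.9, and 2.2 RPM in mock libraries. In abi1td it had 2.4, 1.7, and 2.4 RPM in ABA libraries, against 4.0, 1.7, and 3.4 RPM in mock libraries. The lower end of the ABA groups lay at or under that of the mock groups, with overlap. In mkkk17 it had 1.6, 2.0, and 3.7 RPM in ABA libraries, against 1.3, 0.8, and 3.5 RPM in mock libraries. In mkkk18 it had 2.3, 1.5, and 2.4 RPM in ABA libraries, against 5.0, 4.9, and 3.7 RPM in mock libraries. Only the mkkk18 groups did not overlap. After rescaling, the log2 change of miR160a-3p was -0.26 (WT Col-0), -0.24 (abi1td), -0.64 (mkkk17), and -0.80 (mkkk18), with no call (limma adjusted p from 0.163 to 0.625). In mkkk18 it was called under GC correction with the replicate number as a block (-0.97, limma adjusted p = 0.0449), and not under either alone (limma adjusted p = 0.0827 and 0.196). With RPM as deposited the mkkk17 value was 0.41.

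miR160c-3p, the strand of the MIR160c locus, had positive log2 changes in 3 genotypes, none of them called. In WT Col-0 it had 0.8, 0.9, and 1.6 RPM in ABA libraries, against 1.3, 1.3, and 0.5 RPM in mock libraries. In abi1td it had 2.7, 1.5, and 2.7 RPM in ABA libraries, against 1.3, 1.8, and 1.1 RPM in mock libraries. Both pairs overlapped. In mkkk17 it had 2.6, 2.8, and 2.9 RPM in ABA libraries, against 0.3, 0.5, and 1.1 RPM in mock libraries. In mkkk18 it had 0.9, 1.5, and 1.5 RPM in ABA libraries, against 2.0, 2.0, and 1.7 RPM in mock libraries. The ABA libraries lay wholly above mock in mkkk17 and wholly below mock in mkkk18 on the deposited scale, and after rescaling the mkkk18 groups overlapped. After rescaling, the log2 change was 0.40 (WT Col-0), 0.63 (abi1td), 0.67 (mkkk17), and -0.27 (mkkk18), again with no call (limma adjusted p from 0.310 to 0.741). As deposited, the mkkk17 change was 1.59 and called (limma adjusted p = 0.00885).

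The ratio of miR160a-3p to miR160c-3p within a library is free of the scaling between libraries. In WT Col-0 the ratio was 1.5, 1.22, and 1.69 in ABA libraries, against 2.46, 2.23, and 4.40 in mock libraries. In abi1td it was 0.889, 1.13, and 0.889 in ABA libraries, against 3.08, 0.944, and 3.09 in mock libraries. miR160a-3p thus prevailed in the mock libraries, apart from abi1td replicate 2, and the strands were nearer to par with ABA. In mkkk17 the ratio was 0.615, 0.714, and 1.28 in ABA libraries, against 4.33, 1.60, and 3.18 in mock libraries. In mkkk18 it was 2.56, 1.00, and 1.60 in ABA libraries, against 2.50, 2.45, and 2.18 in mock libraries. The groups did not overlap in WT Col-0 and mkkk17 (exact permutation test, two-sided p = 0.1 each, the smallest possible), and overlapped in abi1td (exact p = 0.2) and mkkk18 (exact p = 0.4).

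Over the 4 genotypes the log2 ratio of miR160a-3p to miR160c-3p was 1.11 lower with ABA (mean ABA minus mock difference -1.11, exact permutation test within genotypes, two-sided p = 0.00015). By genotype the difference was -0.99 (WT Col-0), -1.11 (abi1td), -1.77 (mkkk17), and -0.57 (mkkk18). With each of the 24 libraries left out in turn, the mean stayed between -1.25 and -1.02 (exact permutation p from 2.5e-05 to 0.000863). It was -0.84 with 0.5 RPM added to both strands. On GC-corrected values, which were rescaled and had 0.5 RPM added, it was -1.01, a setting also chosen after seeing the data. In the 10 libraries with a known value of 1 read, counting error alone gives the log2 ratio of a library an SE of 0.41 to 0.80. All 10 are ABA libraries, so no such error is known for a mock library. miR160c-3p, the denominator, was as low as 0.3 RPM in mkkk17 mock replicate 1, where rounding to 1 decimal also weighs. The RPM of the 3p strands had been seen before the ratio was chosen, so its p-value is not that of a test fixed beforehand. This test was 1 of 3 over the genotypes, with the share and the 5p to 3p ratio, and none of the 3 p-values is adjusted for that number.

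**Figure D4:**
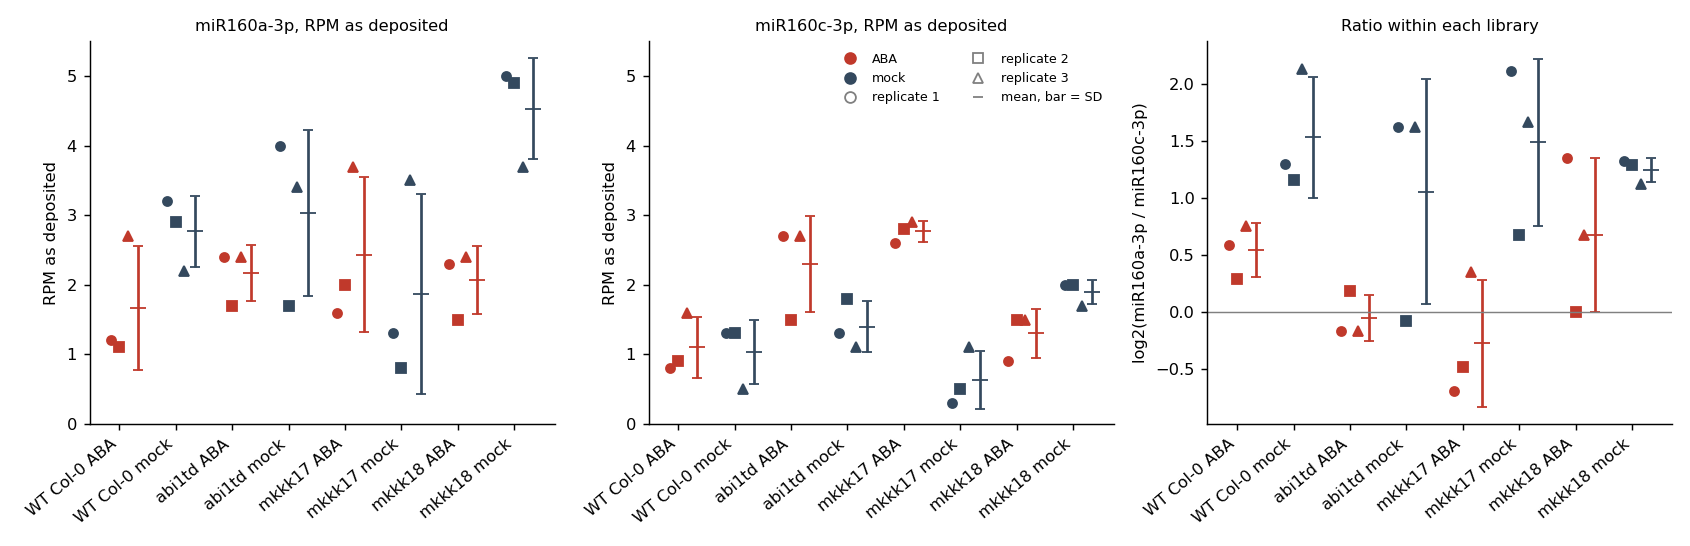
RPM as deposited of miR160a-3p (left) and miR160c-3p (middle) and their log2 ratio within each library (right), by genotype, with ABA in red and mock in blue; points are libraries, and bars give the mean and SD of 3. The ratio was lower in ABA than in mock libraries by 0.99 (WT Col-0), 1.11 (abi1td), 1.77 (mkkk17), and 0.57 (mkkk18) on the log2 scale.

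The ratio of miR160c-5p to the summed 3p strands ran from 154-fold to 272-fold in WT Col-0 ABA libraries, against 71.8-fold to 213-fold in WT Col-0 mock libraries. In mkkk18 it ran from 94.1-fold to 211-fold in ABA libraries, against 57.5-fold to 84.1-fold in mock libraries. The ABA and mock libraries overlapped in WT Col-0 but not in mkkk18 (exact permutation p = 0.2 and 0.1). Over the 4 genotypes the log2 ratio was 0.50 higher with ABA (exact permutation test, two-sided p = 0.0227), with differences of 0.86 (WT Col-0), -0.01 (abi1td), 0.27 (mkkk17), and 0.89 (mkkk18). This increase rested on the a strand: against miR160a-3p alone the mean was 0.91 (exact permutation p = 0.000563), and against miR160c-3p alone it was -0.19 (exact permutation p = 0.499). On GC-corrected values the difference was -0.04 (exact permutation p = 0.806). That setting used rescaled values with 0.5 RPM added and the mean log2 level of the 3p strands in place of their sum. It therefore differs from the main ratio in more than GC content.

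Across the 24 libraries the rescaled log2 levels of miR160c-5p and its 3p partners had Pearson coefficients of -0.15 for miR160a-3p and -0.19 for miR160c-3p, with 0.10 between the 3p strands. The entries most like miR160c-5p were miR168a-3p (0.83), miR157a-3p (0.83), miR168b-5p (0.82), miR166a-5p (0.78), and miR166e-3p (0.75). By rank (Spearman) their coefficients were lower, at 0.69, 0.53, 0.62, 0.49, and 0.65 in the same order. By family, miR168 regulates AGO1, the effector protein of miRNAs, miR157 regulates SPL genes, and miR166 regulates HD-ZIP III genes. These roles are given for the families, and not for each strand listed. These 5 entries have GC contents from 52.4% to 61.9%, and all points share the libraries and their scaling. The coefficients are descriptions over libraries that include the WT Col-0 ABA group.

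The wider set of auxin-related miRNAs was described from a list of 19 entries in 6 families: 160 with 3 entries, miR167 (ARF6 and ARF8) with 5, miR390 (TAS3, and through it ARF2, ARF3, and ARF4) with 3, miR393 (the auxin receptors TIR1 and AFB2) with 3, miR164 (NAC1 and CUC genes) with 4, and miR847 (IAA28) with 1. In WT Col-0, 7 of the 17 entries tested were called, 5 higher and 2 lower, against 60% of all entries. Their median log2 change was 0.41, against -0.10 for all 125 entries. With RPM as deposited 2 were called.

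The higher ones in WT Col-0 were, beside miR160c-5p, miR164b-3p (log2 change 1.26), miR167c-3p (1.08), miR847 (0.95), and miR390b-5p (0.67), which the GC correction turned to -0.70, called as lower (limma adjusted p = 0.0209). The other 3 kept their sign under that correction, and miR164b-3p lost its call (0.76, limma adjusted p = 0.0560). miR390b-5p, like miR160c-5p, has 61.9% GC. The miR164 and miR167 entries tested in WT Col-0 and not labelled 3p were not called (limma adjusted p from 0.0701 to 0.791). They were miR164b-5p at 0.63, miR167b at 0.26, miR167c-5p at -0.10, and miR167d at 0.41. miR847 averaged 2.37 RPM in WT Col-0 ABA libraries, against 1.33 RPM in WT Col-0 mock libraries. The lower ones were the 3p strands miR393a-3p (-2.77) and miR393b-3p (-2.25), at 33.3% and 38.1% GC, which stayed lower after GC correction (-1.56 and -1.47). miR393a-3p averaged 1.60 RPM in WT Col-0 ABA libraries, against 19.8 RPM in WT Col-0 mock libraries. miR393a-5p, the receptor-targeting strand, had a log2 change of 0.48 and was not called (limma adjusted p = 0.219).

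After rescaling, the list gave fewer calls in the mutants than in WT Col-0, while with RPM as deposited it gave 8 in mkkk17, 1 in mkkk18, and 0 in abi1td, against 2 in WT Col-0. On the deposited scale 63 of the 129 entries tested in mkkk17 were called, so the 8 of 17 stand beside a similar share of all entries. In abi1td 0 of 18 entries passed in limma (1.55% of all), and 3 had an unadjusted p under 0.05, with a median log2 change of -0.02, against -0.08 for all entries. In mkkk17 2 of 17 were called, both lower (2.33% of all entries were), miR167a-3p at -1.58 and miR390a-3p at -1.44, with a median of -0.16, against 0.02. In mkkk18 1 of 18 was called, lower (0.752% of all), miR167a-3p at -1.24, with a median of -0.23, against -0.03. As deposited, neither of the mkkk17 entries was called, with miR167a-3p at -0.19 (limma adjusted p = 0.749) and miR390a-3p at -0.24 (limma adjusted p = 0.696). These called entries are all 3p strands. After rescaling, the miR167 and miR390 entries not labelled 3p were not called in mkkk17. They were miR167b at -0.16, miR167c-5p at 0.96, miR167d at -1.09, and miR390b-5p at -0.74. Nor were the miR167 ones called in mkkk18, with miR167b at 0.02, miR167c-5p at -0.68, and miR167d at -0.24. The abi1td count was 3 without ABA replicate 2. The mkkk17 count was 0 without mock replicate 1 and without ABA replicate 1 or 2, and 1 without mock replicate 2 or ABA replicate 3. The mkkk18 count was 0 without any 1 of its mock libraries.

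**Figure D5:**
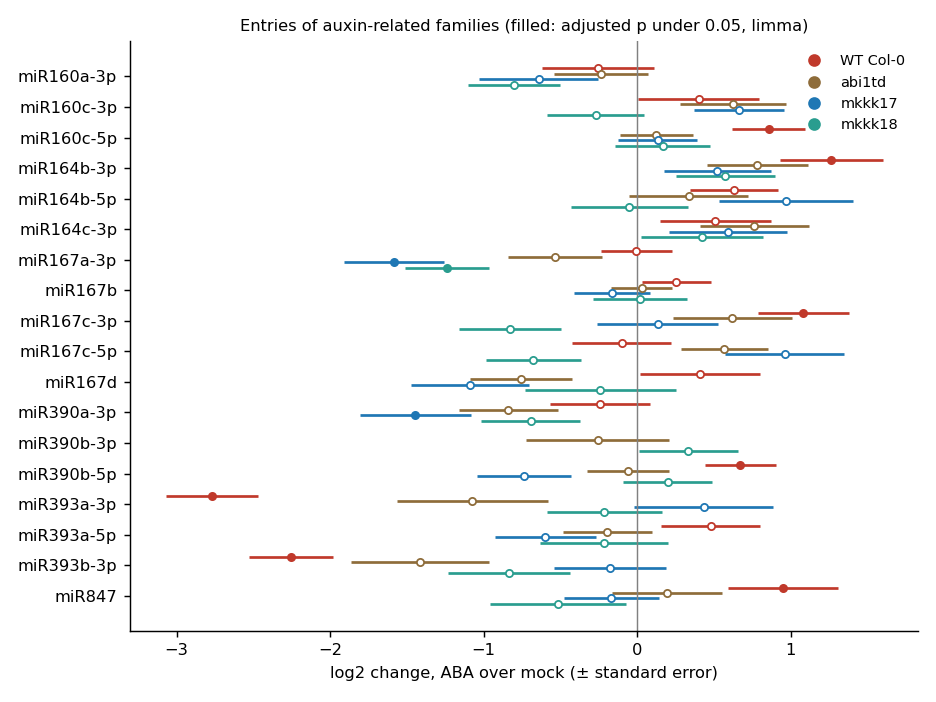
Log2 change, ABA over mock, of the entries of auxin-related families in each genotype, with bars of 1 standard error; filled points have a limma adjusted p under 0.05. In WT Col-0 the 2 filled points on the left are miR393a-3p (-2.77) and miR393b-3p (-2.25), and miR160c-5p lies at 0.86 in WT Col-0 and from 0.12 to 0.17 in the mutants.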

How the data were processed

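RPM per mature sequence were deposited by the authors, 1 table for each of the 24 libraries, rounded to 1 decimal and not rescaled between libraries. Before that, the authors clipped adapters, discarded short reads, filtered for quality, and catalogued reads with mirPRo against miRBase. The genome build and the total behind the RPM are not given in the sources used here, and whole reads could not be recovered, so count tests were not run. Labels gave the groups.

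RPM were divided by median-of-ratios factors over entries above 0 in every library of a fit, and log2(scaled RPM + 0.5) was tested with limma 3.58.1 (R 4.3.3), with a variance trend and Benjamini-Hochberg adjustment, for entries of at least 1 RPM on average, at an adjusted p of 0.05. Fold changes are on this log2 scale, which understates changes of low entries. ABA was compared with mock over the 6 libraries of a genotype, and genotypes in a fit of all 24. Shares and ratios were tested by exact permutation of treatment within genotypes (160000 arrangements) with SciPy 1.17.1 in Python 3.11.15. On simulated libraries of WT Col-0, 36 of 40 entries changed by 1.5 (log2) were recovered among 128, with 1 false call. That simulation had the same spread for all entries, as many rises as falls, and no trend with GC content. Its changes were also larger than that of miR160c-5p, so it does not bear on the call of that entry.

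The members, the auxin list, and the tests were chosen with earlier results of these data known. Named entries are the members, the auxin list, and the 5 entries most correlated with miR160c-5p. Alternatives were RPM as deposited, trimmed-mean scaling, other pseudocounts and filters, a block for the replicate number, correction for GC content (per library, a straight line on GC percent subtracted), robust moderation, a joint fit, and each library left out. TAIR10.1 (RefSeq) was searched for exact matches of the sequences.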

Additional observations from a re-analysis of the deposited data

Results flagged for a closer look

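Among the auxin-related entries, the ABA response in a mutant differed from that in WT Col-0 by a direct test of the difference for 8 pairs of entry and mutant (limma, fit of 24 libraries). No miR160 member was among them, and all but miR390b-5p are 3p strands. Of 18 auxin-related entries tested, 5 were called in mkkk17 and 3 in mkkk18, against 34.1% and 13.2% of all 129 entries. In mkkk17 the log2 difference, mutant minus WT Col-0, was -1.67 for miR167a-3p (adjusted p = 0.00656), -1.29 for miR390a-3p (adjusted p = 0.0322), -1.499 for miR390b-5p (adjusted p = 0.00581), 3.13 for miR393a-3p (adjusted p = 0.00123), and 1.99 for miR393b-3p (adjusted p = 0.0127). With RPM as deposited the first 3 turned to 0.33, 0.46, and 0.50, and after GC correction the value for miR390b-5p was -0.05 (limma adjusted p = 0.950) and that for miR390a-3p -1.15 (limma adjusted p = 0.0570). In mkkk18 it was -1.32 for miR167a-3p (adjusted p = 0.0400), -1.99 for miR167c-3p (adjusted p = 0.0185), and 2.49 for miR393a-3p (adjusted p = 0.0185). These 3 were also called after GC correction, at -1.23, -1.89, and 1.73, and none of them with RPM as deposited (limma adjusted p = 0.291, 0.0968, and 0.0608).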

How the results depend on the processing

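RPM as deposited gave miR160c-5p log2 changes with ABA of 0.34 (WT Col-0), -0.0078 (abi1td), 1.53 (mkkk17), and -0.042 (mkkk18), differences from WT Col-0 mock of -1.09 (mkkk17) and 0.077 (mkkk18), differences from WT Col-0 ABA of -0.73 (abi1td), 0.10 (mkkk17), and -0.31 (mkkk18), none of them called, a mkkk17 response difference of 1.19, a miR160a-3p change in mkkk17 of 0.41, and auxin counts of 2 in WT Col-0 and 8 in mkkk17. The mkkk17 auxin count stands beside 63 of 129 entries called on that scale. GC correction, with the replicate block or without it, gave -0.51 in WT Col-0, -0.37 in abi1td, and -0.27 in mkkk18 for ABA against mock, 0.0021 for abi1td against WT Col-0 mock, 0.065, 0.45, and 0.16 for abi1td, mkkk17, and mkkk18 against WT Col-0 ABA, and 0.063, 0.64, and 0.17 for their response differences.

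The replicate block alone changed no call of a member. GC correction with replicate block gave a call of miR160a-3p in mkkk18 (-0.97, limma adjusted p = 0.0449). The block alone moved the mkkk17 auxin count to 0, and GC correction with replicate block the mkkk18 count to 3. Same-numbered libraries did not deviate together in every genotype (correlations from -0.32 to 0.50), so the numbers were not taken as pairs.

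The auxin count was 1 in abi1td in the joint fit, 1 in mkkk17 with a pseudocount of 0.1, no filter, or a minimum of 5 RPM, and 0 in mkkk18 without a filter. The share difference was 0.126 percentage points over 21-nt entries (exact permutation p = 0.159) and 0.487 without the largest entry. The 5p to 3p ratio was -0.19 against miR160c-3p alone and -0.045 on GC-corrected values, taken against the mean log2 level of the 3p strands. Why these values moved was not tested.

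Leaving out 1 library gave, for miR160c-5p, ABA against mock, -0.10 to 0.25 in abi1td and -0.13 to 0.34 in mkkk18. Against WT Col-0 mock it gave -0.20 to 0.052 in mkkk17 and -0.13 to 0.062 in mkkk18, and against WT Col-0 ABA -1.08 to -0.74 in abi1td and -1.08 to -0.67 in mkkk18. Response differences ran from -0.96 to -0.62 in mkkk17 and from -1.02 to -0.60 in mkkk18, the share from 0.115 to 0.211 percentage points, and the auxin counts from 0 to 3 in abi1td, 0 to 3 in mkkk17, and 0 to 1 in mkkk18. Values of the 3p strands, from 0.3 to 5 RPM, are limited by depth.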
